A study of Citrus junos with 4 samples.

Results

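The genes described here are the calcium sensors of Ziyang xiangcheng (Citrus junos, a rootstock citrus), the kinases that work with them, and the pumps and channels that move calcium across membranes. They were chosen by phrases in the text that accompanies each gene in the deposited table. The phrases use no measured value, but were set with earlier results of these data known. A gene was taken where this text held the phrase calmodulin-like protein, calmodulin followed by a number, calcium-binding protein CML, calcineurin B-like, CBL-interacting, calcium-dependent protein kinase, calcium-transporting ATPase, cyclic nucleotide-gated ion channel or glutamate receptor. This gave 255 of 29406 genes, of which 40 held more than 1 of the phrases. The text lists the database proteins a gene resembles, so a phrase can stand far down the list. Each gene was therefore also placed in a class by the name that came first. A calcium name came first in 214 genes, and in the other 41 another name did, for example a proton pump or an abscisic acid-activated kinase. These 41 are given apart.

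The comparison was between doubled diploid (4×) and diploid (2×) seedlings of the same cultivar, untreated and grown in a greenhouse, and asked which genes differed in leaf expression after genome doubling. The 4× plants arose from the 2× genotype by spontaneous doubling. Leaves of 3 to 5 months, taken near the top of the plant, were picked in the morning. There were 2 libraries of 4× and 2 of 2×, each from the pooled leaves of 4 plants and named here 4×-1, 4×-2, 2×-1 and 2×-2. A p-value therefore measures the spread between pools and not between single plants. Whole leaves hold several cell types, so fewer cells of a type and less RNA per cell cannot be told apart, and levels relative to the reads of a library say nothing of the amount of RNA per cell.

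The library totals behind the values were 8874306 to 9545185 reads, and 1 read on a gene of 1 kb was worth 0.105 to 0.113 RPKM (reads per kilobase of gene, scaled to library size). The pools of a ploidy were not copies of each other, since their recovered reads gave a mean chi-square per gene of 4.42 for the 4× pools and 5.85 for the 2× pools, where sampling alone would give about 1. Across the 16157 tested genes, the correlation of log2 values was 0.988 within 4×, 0.988 within 2× and 0.980 to 0.984 between 4× and 2× libraries. The markers of green leaf tissue were abundant in all libraries. The 2 genes for the ribulose bisphosphate carboxylase small chain summed to 8081 and 8073 RPKM in 4×-1 and 4×-2, against 5875 and 7095 RPKM in 2×-1 and 2×-2. The 15 genes for chlorophyll a-b binding proteins summed to 9730 and 9976 RPKM in 4×, against 9236 and 11396 RPKM in 2×, and overlapped between the groups. So did the 45 genes with photosystem in their text, 37 of them detected, which summed to 22154 and 21664 RPKM in 4×, against 18323 and 23125 RPKM in 2×. The small chain sums did not overlap, and their part in the results was not tested.

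Plant cells raise free calcium in the cytosol for a short time when they meet drought, salt, cold, touch or a pathogen. Cyclic nucleotide-gated channels (CNGC) and glutamate receptor-like channels (GLR) let calcium in, and calcium ATPases pump it out of the cytosol again. The rise is read by proteins with EF-hand motifs, the loops that bind the ion. Calmodulin and the calmodulin-like proteins (CML) have no enzyme activity and change the activity of the proteins they bind. The calcineurin B-like proteins (CBL) bind and recruit kinases of their own, the CBL-interacting protein kinases (CIPK). The calcium-dependent protein kinases (CDPK) carry sensor and kinase in a single protein.

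These families differed widely in how many of their genes were expressed in the leaf. Of the 255 genes, 232 had a read in at least 1 library, 23 were listed at 0 in all of them, and 164 were tested, as their RPKM averaged at least 1 across the libraries. The average was taken over both ploidies together. Nearly all genes of the CBL and CIPK families were tested, with 7 of 8 CBL genes and 17 of 18 CIPK genes. The CIPK genes had a median level of 35.2 RPKM. All 5 CDPK-related kinases passed as well, with 3.45 to 33.7 RPKM. Of 38 calmodulin-like genes 28 were tested, and of 39 CDPK genes 20. In the CNGC family 26 of 41 genes were tested, and 15 of 27 calcium ATPases. The GLR family stood at the low end with 8 of 31, and the median level over all GLR genes was 0.0719 RPKM. At the top of the range were a pair of calmodulin genes with neighbouring identifiers, Cs6g16140 at 461 RPKM and Cs6g16145 at 406 RPKM, the calmodulin-like gene Cs3g19070 at 261 RPKM and the CIPK gene orange1.1t00555 at 260 RPKM.

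**Figure D1:**
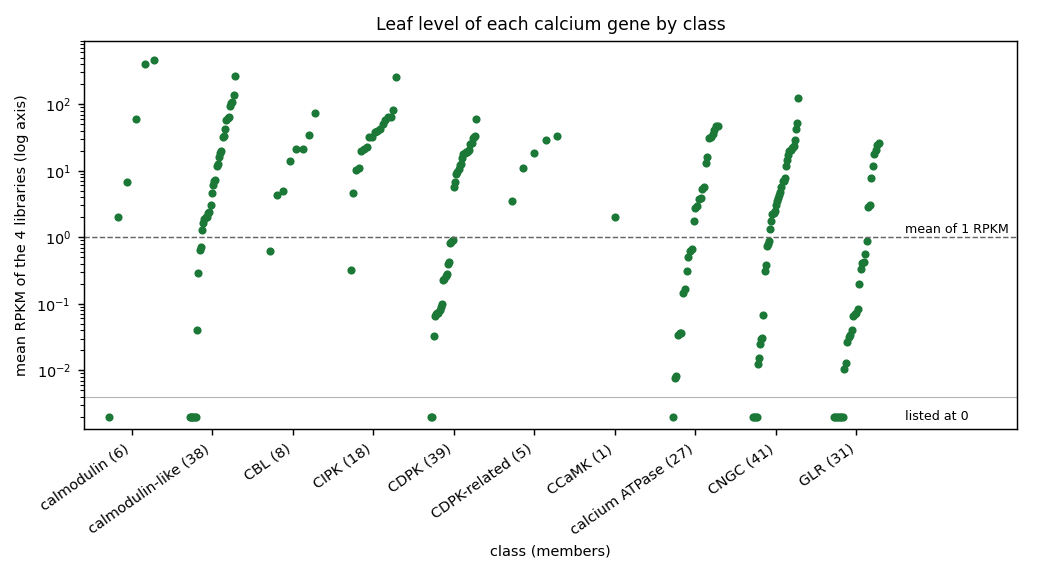
Each point is 1 calcium gene, placed in its class on the x axis and at its mean RPKM over the 4 libraries on the y axis, which is a log axis. Points below the thin line are genes listed at 0, and the dashed line marks the mean of 1 RPKM above which genes were tested: most CIPK points lie above it and most GLR points below it.

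Between 4× and 2×, 2 of the 164 tested genes passed the test, and both belong to the CBL and CIPK system. The CIPK gene Cs9g08000 fell in 4× and the CBL gene Cs1g18400 rose. The test was limma on log2(RPKM + 0.5) across all genes, two-sided, with Benjamini-Hochberg adjustment and an adjusted p below 0.05 as the call. It called 1.39% of all 16157 tested genes, so the 2 calls among the calcium genes, 1.22%, were close to the background. By direction, 1 of 164 was higher in 4× beside 0.396% of all genes, and 1 of 164 was lower beside 0.99% of all genes. At an unadjusted p below 0.05 there were 26 calcium genes, or 15.9%, of which 14 were higher and 12 lower in 4×, beside 13.3% of all genes. In 38 calcium genes both 4× libraries lay above both 2× libraries, beside 17.5% of all tested genes, and in 40 both lay below, beside 26.2%. The median log2 fold change was -0.013 over the calcium genes and -0.027 over all tested genes. The extremes were -1.05 and 1.22, and 5 of the 164 differed by more than 1 log2 unit. When the same comparison was made with limma voom on the reads recovered from the RPKM values, 5 of 164 calcium genes were called, beside 2.5% of all genes. The limma count was 1 without 2×-2, when 77 of all 16157 genes were called, and 6 without 4×-1, when 264 were. Without the filter on low values limma called 0 of 24073 genes, 2438 of which had an unadjusted p below 0.05, and the lowest adjusted p of a calcium gene was then 0.224.

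**Figure D2:**
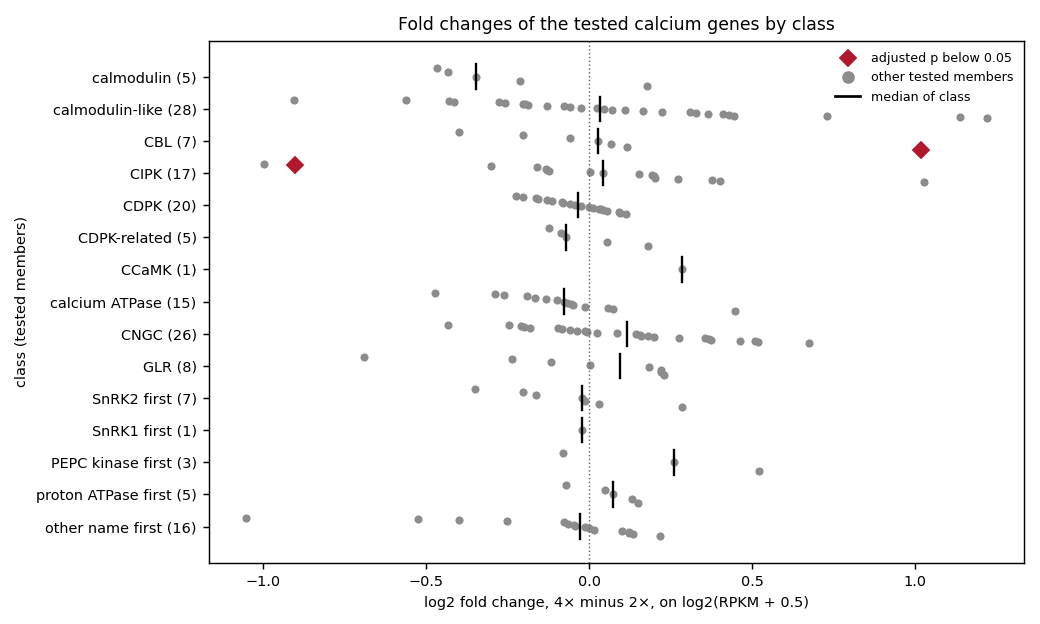
Each point is a tested calcium gene at its log2 fold change, 4× minus 2×, on the log2(RPKM + 0.5) scale, in the class given on the y axis with its number of tested genes. Black bars are class medians, diamonds mark the 2 genes with an adjusted p below 0.05, Cs9g08000 at -0.90 and Cs1g18400 at 1.02, and the CDPK class spans the narrow range from -0.22 to 0.11.

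In the CBL family, Cs1g18400, whose first name is calcineurin B-like protein 9, had 7.61 and 6.20 RPKM in 4×-1 and 4×-2, against 3.24 and 3.04 RPKM in 2×-1 and 2×-2. In Arabidopsis, CBL9 is a membrane-bound sensor that acts in potassium uptake and in abscisic acid responses. Both 4× libraries lay above both 2× libraries, and the gap between the groups was wider than the spread within either. The log2 fold change was 1.02 with a standard error of 0.18 and an adjusted p of 0.0359 (limma). At this level the values rest on at least 118 and 91 reads in 4× and at least 50 and 48 reads in 2×. The call was lost with an adjusted p of 0.0930 without 2×-1, 0.125 without 2×-2 and 0.0854 without 4×-1, while the log2 fold change stayed between 0.88 and 1.16.

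No other CBL gene was called. The CBL gene of the highest level, Cs4g08230, resembles CBL3, a sensor at the vacuole membrane in Arabidopsis, and had 75.9 and 72.8 RPKM in 4×, against 76.0 and 66.3 RPKM in 2×. The next, Cs5g07690, resembles CBL1 and had 32.9 and 34.7 RPKM in 4×, against 43.6 and 28.5 RPKM in 2×. In both genes the libraries of the ploidies overlapped. Over the 7 tested CBL genes the log2 fold changes ran from -0.40 to 1.02, with a median of 0.027.

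Among the kinases that CBL proteins recruit, Cs9g08000 had 61.0 and 52.5 RPKM in 4×, against 117 and 96.5 RPKM in 2×. Its text names CIPK4 among its closest matches. The mean in 4× was 56.7 ± 6.03 RPKM and that in 2× 107 ± 14.5 RPKM (SD, n = 2 each), with a log2 fold change of -0.90, a standard error of 0.13 and an adjusted p of 0.0125 (limma). It had the lowest p of the calcium genes, and rests on at least 1001 and 816 reads in 4× and at least 1912 and 1615 in 2×. Leaving out any 1 library kept its adjusted p between 0.00625 and 0.0443.

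A second gene with CIPK4 among its matches, Cs9g07340, had 3.45 and 2.37 RPKM in 4×, against 8.42 and 4.55 RPKM in 2×. Its log2 fold change of -0.997 was of similar size, but the 2× pools differed from each other, it rests on at least 38 reads in 4× and 87 in 2×, and the adjusted p was 0.134 (limma). Cs7g06310, which resembles CIPK5, had 19.8 and 33.4 RPKM in 4×, against 13.3 and 11.5 RPKM in 2×. The groups did not overlap, but the 4× pools stood far apart. The log2 fold change was 1.03 with a standard error of 0.21 and an adjusted p of 0.0509 (limma), while on recovered reads the adjusted p was 0.00987 (limma voom). Leaving out 1 library moved the limma value between 0.000905 without 4×-1, its only call among the 4 omissions, and 0.184 without 2×-2, and the log2 fold change between 0.66 and 1.399.

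The most abundant kinase of the family, orange1.1t00555, resembles CIPK9, a regulator of potassium balance in Arabidopsis. It had 287 and 305 RPKM in 4×, against 227 and 221 RPKM in 2×, at least 4714 and 4748 reads in 4× and at least 3718 and 3694 in 2×. The replicate pools were close and the groups were apart, yet the log2 fold change of 0.40 (SE 0.11) did not pass the test, with an adjusted p of 0.141 (limma). Over the 17 tested CIPK genes 1 was called, and 6, or 35.3%, had an unadjusted p below 0.05 (3 higher and 3 lower in 4×). In 12, or 70.6%, the libraries of the ploidies did not overlap, 6 in each direction. Over all tested genes these shares were 13.3% and 43.7%, and the gap was not tested. Further from the threshold were Cs2g08190 and Cs4g17990. Cs2g08190, which resembles CIPK23, the kinase of the root potassium channel, had 65.2 and 64.5 RPKM in 4×, against 71.8 and 55.4 RPKM in 2× (adjusted p = 0.936, limma). Cs4g17990, which resembles CIPK24, known as SOS2 of the salt tolerance pathway, had 30.5 and 31.3 RPKM in 4×, against 32.5 and 34.9 RPKM in 2× (adjusted p = 0.703). Both were named after their values were seen.

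**Figure D3:**
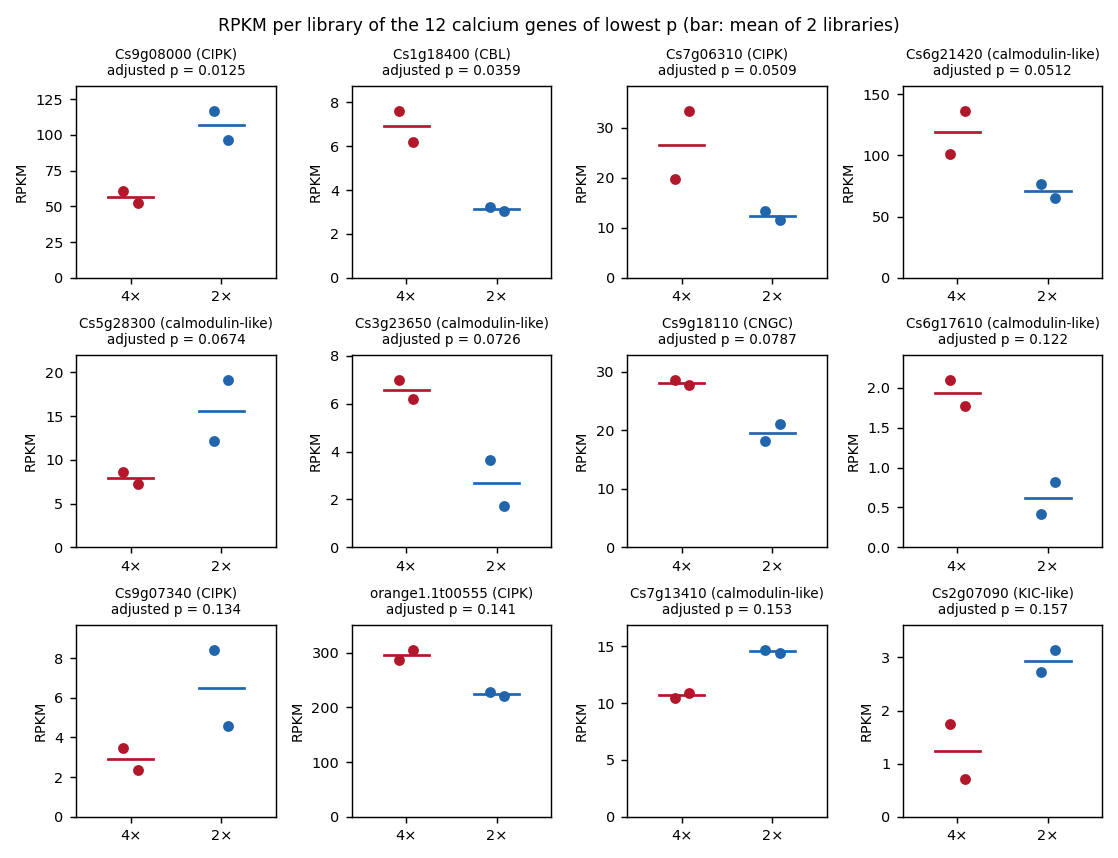
Each panel shows 1 of the 12 calcium genes of the lowest p, with RPKM on the y axis from 0, the 2 libraries of 4× on the left in red and the 2 of 2× on the right in blue, and a bar at each mean. In all 12 panels the libraries of the ploidies do not overlap, which follows in part from the choice by p. In Cs7g06310, Cs5g28300 and Cs9g07340 the pools of 1 ploidy stand far apart. Relative to their low levels, so do the pools of 1 ploidy in Cs2g07090, Cs3g23650 and Cs6g17610.

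Calmodulin, or a calmodulin-related protein, was the name that came first in 6 genes, of which 5 were tested and none was called. The pair Cs6g16140 and Cs6g16145 carried most of the reads. Cs6g16140 had 430 and 356 RPKM in 4×, against 513 and 545 RPKM in 2×. Both 4× values lay below both 2× values, and the log2 fold change was -0.43 (SE 0.14, adjusted p = 0.201, limma). Cs6g16145 had 416 and 338 RPKM in 4×, against 414 and 457 RPKM in 2×, and its groups overlapped. The texts of these genes list nearly the same calmodulins. Near-identical copies can lose reads or take each other's reads when only uniquely mapped reads are counted, so their single values are uncertain. The calmodulin gene next in level, Cs2g29030, named after its values were seen, had 54.6 and 49.6 RPKM in 4×, against 76.7 and 57.3 RPKM in 2×. Its log2 fold change was -0.35 with an adjusted p of 0.325. The median over the 5 tested calmodulin genes was -0.35. Of the 5, 2 had an unadjusted p below 0.05, both lower in 4×, beside 13.3% of all tested genes in either direction.

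The calmodulin-like genes covered the widest range of log2 fold changes. None of the 28 tested genes was called by limma, and limma voom called Cs6g21420. At an unadjusted limma p below 0.05 there were 8, or 28.6%, beside 13.3% of all tested genes, 6 higher and 2 lower in 4×. The log2 fold changes of the 28 ran from -0.91 to 1.22 with a median of 0.034. Cs6g21420, which resembles CML45 and CML42, had 101 and 137 RPKM in 4×, against 76.6 and 65.2 RPKM in 2×. The ploidies did not overlap, the log2 fold change was 0.73 with a standard error of 0.15, and the adjusted p was 0.0512 by limma and 0.0131 by limma voom. The limma value was 0.0490 after median of ratios scaling and 0.0499 with robust eBayes. Leaving out 1 library moved it between 0.00698 without 4×-1, the only omission that gave a call, and 0.190 without 2×-2, and the log2 fold change between 0.52 and 0.95.

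Cs3g23650 had the highest log2 fold change of all the calcium genes, 1.22 (SE 0.28), but an adjusted p of 0.0726 (limma). It resembles calmodulin-like protein 6 and had 6.98 and 6.20 RPKM in 4×, against 3.66 and 1.71 RPKM in 2×, from at least 81 reads in 4× and 34 in 2×. Leaving out 1 library moved the adjusted p between 0.0190 without 2×-1, the only omission that gave a call, and 0.199 without 2×-2, and the log2 fold change between 0.77 and 1.68. Cs5g28300, which resembles calmodulin-like protein 1, had 8.58 and 7.28 RPKM in 4×, against 12.2 and 19.1 RPKM in 2×, with a log2 fold change of -0.91 (SE 0.20, adjusted p = 0.0674, limma). Its 2× pools differed by more than its 4× pools did, and the adjusted p was 0.0220 without 2×-1, 0.0437 without 4×-1, 0.256 without 2×-2 and 0.152 without 4×-2.

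The polcalcin gene Cs6g17610, of a family first known as pollen allergens, had 2.09 and 1.77 RPKM in 4×, against 0.421 and 0.822 RPKM in 2×. These values come from at least 9 reads in 4× and 3 in 2×, and the adjusted p was 0.122 (limma). Cs7g13410, which resembles calmodulin-like protein 4, had 10.4 and 10.9 RPKM in 4×, against 14.7 and 14.4 RPKM in 2×. Its pools agreed closely within each ploidy, with a log2 fold change of -0.43 (SE 0.13) and an adjusted p of 0.153. Of the genes named for their level, Cs3g19070, with the first name CML29, had 258 and 231 RPKM in 4×, against 282 and 274 RPKM in 2×, a log2 fold change of -0.19. The CML27-like gene orange1.1t00071 had 143 and 126 RPKM in 4×, against 148 and 132 RPKM in 2×, and the CML21-like gene Cs4g07720 had 61.6 and 56.5 RPKM in 4×, against 58.4 and 57.6 RPKM in 2×. The groups overlapped in both.

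The calcium-dependent protein kinases, which in Arabidopsis act in stomatal closure, immunity and abscisic acid responses, had the narrowest range of log2 fold changes among the larger families. Of 20 tested genes none was called by limma or by limma voom, and none had an unadjusted p below 0.05 in limma. All log2 fold changes lay between -0.22 and 0.11. The ploidies did not overlap in 6 genes, or 30%, beside 43.7% of all tested genes, and 5 of the 6 were lower in 4×. The gene of the highest level, Cs6g08510, which resembles CDPK13, had 53.8 and 56.1 RPKM in 4×, against 62.7 and 63.9 RPKM in 2×. Both 4× values were lower, by a log2 fold change of -0.20 (SE 0.10, adjusted p = 0.439). A run of 18 CDPK genes with neighbouring identifiers, Cs4g10320 to Cs4g10590, was for the most part weakly expressed. In it 6 genes were tested, 11 were detected below a mean of 1 RPKM and 1 was at 0 in every library.

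The 5 CDPK-related kinases summed to 92.3 and 99.8 RPKM in 4×, against 98.4 and 92.5 RPKM in 2×, and none had an unadjusted p below 0.05. The single calcium and calmodulin-dependent kinase (CCaMK), Cs3g07360, named as the only gene of its class after its values were seen, is known in legumes for its part in root symbiosis. It was near the filter in the leaf, with 1.98 and 2.48 RPKM in 4×, against 2.05 and 1.46 RPKM in 2×, and the ploidies overlapped.

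Of the 27 calcium ATPases, 15 were tested and none was called. These pumps fall into a plasma membrane or vacuole type that calmodulin activates and an endoplasmic reticulum type. The class median was -0.077. In none of the tested genes did both 4× libraries lie above both 2× libraries, beside 17.5% of all tested genes. In 5, or 33.3%, both lay below, beside 26.2% of all tested genes. The largest of these differences was that of Cs1g21430, a gene of the plasma membrane type, with 2.06 and 2.31 RPKM in 4×, against 3.37 and 3.08 RPKM in 2×. Its log2 fold change was -0.47 with a standard error of 0.21 and an adjusted p of 0.376 (limma). Only Cs4g04300, named after its values were seen, had an unadjusted p below 0.05, with 26.6 and 29.2 RPKM in 4×, against 33.4 and 34.9 RPKM in 2×, and an adjusted p of 0.284. The calcium ATPase of the highest level, Cs8g17700 of the endoplasmic reticulum type, also named after its values were seen, had 43.3 and 49.5 RPKM in 4×, against 52.0 and 45.3 RPKM in 2×, and its ploidies overlapped.

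The cyclic nucleotide-gated channels had a class median of 0.11. Of 26 tested genes 4, or 15.4%, had an unadjusted p below 0.05, beside 13.3% of all tested genes. All 4 were higher in 4×, as were 830 of the 2149 tested genes of the whole table at that p. None of the 26 was called by limma, and limma voom called Cs9g18110. The gene of the highest level, Cs6g21850, resembles CNGC2, a calcium channel of Arabidopsis leaves known for its part in defence responses. It had 142 and 134 RPKM in 4×, against 124 and 94.1 RPKM in 2×, with a log2 fold change of 0.35 (SE 0.14, adjusted p = 0.292, limma). The 2× pools differed from each other by more than the nearest libraries of the groups did. The second in level, Cs1g06320, which resembles CNGC4, had 47.7 and 48.1 RPKM in 4×, against 58.0 and 52.4 RPKM in 2×, a log2 fold change of -0.20 with an adjusted p of 0.466.

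Cs9g18110, whose text begins with CNGC1, had 28.6 and 27.7 RPKM in 4×, against 18.1 and 21.1 RPKM in 2×. The pools were close within each ploidy and the groups were apart, with a log2 fold change of 0.52, a standard error of 0.12 and an adjusted p of 0.0787 by limma and 0.0380 by limma voom. The gene lies in a run of 23 CNGC genes with neighbouring identifiers, Cs9g18040 to Cs9g18390, which was singled out after its values were seen. Of these 23, 4 were at 0 in every library, 5 were detected below a mean of 1 RPKM and 14 were tested. Among the 14, 9 had a log2 fold change above 0. In 6 both 4× libraries lay above both 2× libraries, beside 17.5% of all tested genes, and in 1 they lay below, beside 26.2%. The genes of the run summed to 159 and 169 RPKM in 4×, against 145 and 143 RPKM in 2×. Genes side by side with like names can lose reads or take those of a neighbour, so these are not separate measurements of the difference. At the low end, the channels with the largest differences whose ploidies did not overlap were Cs7g07070, with 1.55 and 1.87 RPKM in 4×, against 0.444 and 1.52 RPKM in 2×, and orange1.1t02773, with 1.34 and 1.46 RPKM in 4×, against 2.60 and 1.62 RPKM in 2×. Cs7g07070 rests on at least 15 reads in 4× and 9 in 2×, and neither came near the threshold.

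**Figure D4:**
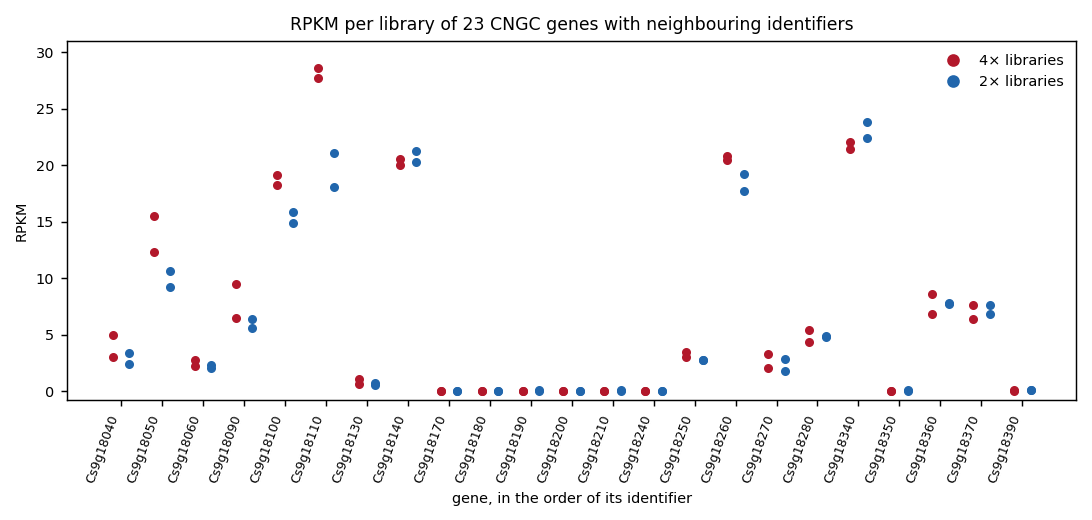
RPKM in each library (y axis) of the 23 CNGC genes Cs9g18040 to Cs9g18390, ordered by identifier on the x axis, with the 2 libraries of 4× in red to the left of the 2 of 2× in blue. Genes at both ends of the run are expressed and a block in the middle is at or near 0, and in Cs9g18050, Cs9g18100 and Cs9g18110 the 4× points stand above the 2× points.

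Most glutamate receptor-like genes were silent or nearly so in these leaves. Of 31 genes 7 were at 0 in all libraries, 16 were detected below a mean of 1 RPKM, and 8 were tested with none called. Of the 8, the 6 whose name begins with GLR3 had the higher levels. Cs2g21560 had 26.9 and 29.8 RPKM in 4×, against 23.2 and 24.97 RPKM in 2×, and Cs8g01200 had 25.2 and 27.6 RPKM in 4×, against 23.3 and 21.9 RPKM in 2×. In both genes the ploidies did not overlap, with log2 fold changes of 0.23 and 0.22 (SE 0.11 each) and adjusted p-values of 0.440 and 0.456 (limma). The lowest fold change was that of Cs1g26650, with 7.65 and 4.15 RPKM in 4×, against 11.3 and 7.86 RPKM in 2×. In Arabidopsis its closest named match takes part in the electrical signals of wounded leaves. The pools of each ploidy differed widely, the log2 fold change was -0.69 (SE 0.26), and the adjusted p was 0.284. Leaving out 1 library moved the log2 fold change between -1.10 and -0.28 and the adjusted p between 0.0306 without 4×-1, the only omission that gave a call, and 0.760. A neighbour with the same first name, Cs1g26670, named after its values were seen, went the other way, with 22.7 and 21.6 RPKM in 4×, against 19.6 and 18.3 RPKM in 2× and an adjusted p of 0.463.

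Summed over each class that begins with a calcium name, the levels of the ploidies overlapped except for calmodulin, CNGC and GLR. The calmodulin genes summed to 910 and 752 RPKM in 4×, against 1013 and 1067 RPKM in 2×, nearly all of it from the pair Cs6g16140 and Cs6g16145. The CNGC genes summed to 473 and 481 RPKM in 4×, against 466 and 414 RPKM in 2×. The GLR genes summed to 119.9 and 122 RPKM in 4×, against 119.3 and 111 RPKM in 2×, so the nearest libraries of the ploidies almost touched. The calmodulin-like genes summed to 1151 and 1102 RPKM in 4×, against 1155 and 1067 RPKM in 2×. The CIPK genes summed to 859 and 895 RPKM in 4×, against 872 and 780 RPKM in 2×, with single members higher and lower in 4×. With 2 libraries against 2, an exact permutation test of such a sum cannot reach 0.05, so none was made.

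**Figure D5:**
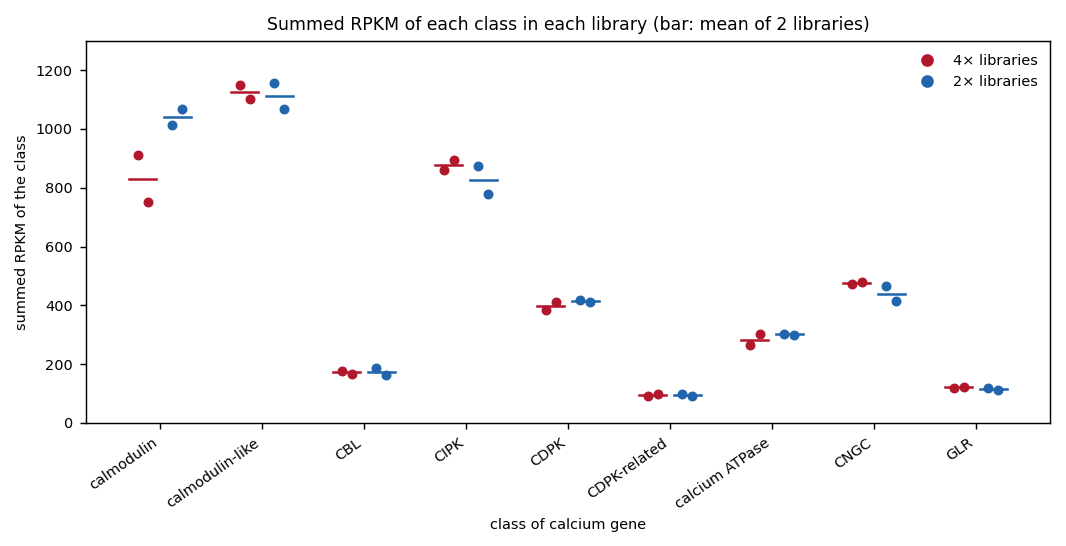
Summed RPKM on the y axis, from 0, of all genes of a class in each library, with the 2 libraries of 4× in red to the left of the 2 of 2× in blue and a bar at each mean; the CCaMK class, with 1 gene, is left out. The calmodulin sums of 752 and 910 RPKM in 4× lie below those of 1013 and 1067 RPKM in 2×, and most other classes overlap.

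Among the 41 genes whose text begins with another name, 32 were tested and none was called. At an unadjusted p below 0.05 there were 3, or 9.4%, all lower in 4×, beside 13.3% of all tested genes. The 41 include 7 SnRK2 kinases, which abscisic acid or osmotic stress activates without calcium and whose texts name CIPK further down. The 7 genes summed to 441 and 454 RPKM in 4×, against 513 and 482 RPKM in 2×, without overlap. Their most abundant gene, Cs1g19910, had 169 and 179 RPKM in 4×, against 220 and 224 RPKM in 2×. The pools were close within each ploidy and the log2 fold change was -0.35, with a standard error of 0.11 and an adjusted p of 0.176 (limma). The 9 proton ATPases, the pumps that energise the plasma membrane, resemble calcium ATPases in sequence. Cs6g03480 had 259 and 211 RPKM in 4×, against 198 and 258 RPKM in 2×, so its groups overlapped. Cs6g20570 had 141 and 148 RPKM in 4×, against 141 and 135 RPKM in 2×, and Cs5g04360 had 64.0 and 68.8 RPKM in 4×, against 57.2 and 62.4 RPKM in 2×, with log2 fold changes of 0.071 and 0.15.

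Cs2g07090 resembles KIC, an EF-hand protein that in Arabidopsis binds a kinesin-like motor, and had 1.75 and 0.717 RPKM in 4×, against 2.73 and 3.14 RPKM in 2×. On the log2(RPKM + 0.5) scale its log2 fold change of -1.05 (SE 0.31) was the lowest of the 164 tested genes. With 1 added in place of 0.5 it was -0.86, beside -0.90 for Cs9g07340 and for Cs9g08000. The values of Cs2g07090 rest on at least 25 reads in 4× and 61 in 2×, and its adjusted p was 0.157 (limma). It was 0.0300 without 4×-1 and 0.349 to 0.453 without another library. The kinase Cs6g15240, of the family named for KIPK and not for a calcium sensor, had 4.24 and 4.51 RPKM in 4×, against 6.44 and 6.59 RPKM in 2×, a log2 fold change of -0.52 (SE 0.16) with an adjusted p of 0.176. The phosphoenolpyruvate carboxylase kinase Cs9g10520, which belongs to the CDPK superfamily but lacks EF-hands, had 6.25 and 6.66 RPKM in 4×, against 6.003 and 4.68 RPKM in 2×.

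A further 174 genes that hold none of the phrases were listed from words such as calmodulin-binding, annexin, calreticulin, EF-hand and exchanger. The words could stand anywhere in the text. Some of these genes begin with another name, such as kinesin, purple acid phosphatase or disease resistance protein, and were not set apart. Of these 115 were tested and none was called by limma, while 19, or 16.5%, had an unadjusted p below 0.05, beside 13.3% of all tested genes. Of the 19, 5 were higher and 14 lower in 4×. Limma voom called 2 of the 115. The median log2 fold change of the 115 was -0.040. Over all tested genes with an unadjusted p below 0.05, 830 were higher and 1319 lower in 4×, so this list leaned the same way as the table. Such genes were 3 of 31 calmodulin-binding genes, all lower, 0 of 11 IQ-domain genes, and 6 of 29 EF-hand genes, 4 higher and 2 lower. In smaller groups they were 3 of 6 respiratory burst oxidase, 2 of 4 calreticulin or calnexin and 2 of 6 phosphoinositide phospholipase C genes, all lower. Also lower were 2 of 9 exchanger and 1 of 4 calcium uniporter genes. In the calcium channel or sensing receptor group 1 of 5 was higher, and 0 of 6 annexins passed. A gene can stand in more than 1 group. The lowest adjusted p was that of the calmodulin-binding gene Cs3g14940, named after its values were seen, with 4.14 and 4.43 RPKM in 4×, against 10.6 and 7.20 RPKM in 2×. Its log2 fold change was -0.95 (SE 0.20) and its adjusted p 0.0535 (limma). Calnexin, a calcium-binding chaperone of the endoplasmic reticulum encoded by Cs7g19400 and also named after its values were seen, had 85.6 and 87.2 RPKM in 4×, against 121 and 110 RPKM in 2×, with a log2 fold change of -0.41 (SE 0.10) and an adjusted p of 0.102. The ploidies did not overlap in either gene.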

How the data were processed

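The deposited RPKM values came from uniquely mapped reads after removal of adapter, poly-N and low-quality reads and alignment to the Citrus sinensis genome by the authors. The submitters' processing notes name TopHat2 2.0.9, Bowtie2 2.0.6, HTSeq 0.5.4p3 and DESeq 1.10.1. The annotation version and strand setting were not given in the sources used here. Reads of another species were aligned, so diverged or near-identical genes have less certain values.

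RPKM values averaging at least 1 (16157 genes) were tested as log2(RPKM + 0.5), 4× against 2×, in limma 3.58.1 under R 4.3.3, using lmFit and eBayes with a trend, two-sided p-values adjusted after Benjamini and Hochberg, and no replicate block. This scale understates changes of low genes. Whole reads were recovered from the RPKM values of 24073 of 24073 detected genes (100%, tolerance 0.001 reads), up to a factor shared with gene length, so read numbers are lower limits. Scripts were checked on simulated data. Tables and plots used Python 3.11.15, pandas 2.3.3, numpy 2.4.6 and matplotlib 3.10.9.

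The members, lists and tests were chosen with earlier results of these data known. Genes were named by rule: each called member, the next by p until 12, the 2 of highest level for each phrase, the largest rise and fall for each phrase without overlap, and each called gene of the further list. Alternatives were pseudocounts of 0.1 and 1, no filter, a 3 RPKM filter, median of ratios scaling, robust eBayes, the replicate block, each library left out, and limma voom on recovered reads.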

Additional observations from a re-analysis of the deposited data

How the results depend on the processing

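Among the calcium genes, 2 were called, and Cs9g08000 was lost only without a filter on low values. Without that filter limma called 0 calcium genes and 0 of all 24073 genes, with 24 calcium genes and 2438 of all genes at an unadjusted p below 0.05, while limma voom with the filter called 5 and 404. A mean of at least 3 RPKM gave 5 of 143 calcium genes, 267 of all 13527 genes and 1 of the further list, robust eBayes gave 1 and limma voom 2 of that list. Leaving out each library gave 1 to 6 calcium genes, 0 to 1 of the further list and 77 to 264 of all genes, the lowest of these without 2×-2. With the replicate block, 12 calcium genes, 6 of the further list and 832 of all genes were called. That fit leaves 1 residual degree of freedom and gave adjusted p-values as low as 3.1e-69 (limma), so its counts were not used as results. Same-numbered libraries did not deviate together (r = -0.046 across 16157 genes), so the numbers were not taken to pair the samples.

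Among the 34 named genes, signs turned when 1 library was left out, in 5 genes near equal levels, and under no other alternative run. The median log2 fold change, -0.013 over the calcium genes and -0.027 over all, was 0.019 and 0.0032 after median of ratios scaling. Across the omissions the log2 fold change ranged from -0.36 to 0.24 for Cs5g07690, from -0.15 to 0.033 for orange1.1t00071, from -0.14 to 0.24 for Cs6g03480, from -0.032 to 0.165 for Cs4g08230 and from -0.037 to 0.086 for Cs4g07720. The causes were not tested. With 2 pools for each ploidy, the differences of whole families were not tested against the spread between pools.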
